A study of Mus musculus with 2 samples.

Results

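This account covers 36 genes of the splicing machinery and its regulators, out of 55536 annotated genes measured: the SR proteins Srsf1 to Srsf7, Srsf9, Srsf10, Srsf11, Tra2a and Tra2b, the kinases Clk1 to Clk4, Srpk1 and Srpk2, the scaffold proteins Srrm1, Srrm2, Son, Pnisr and Acin1, the RNA-binding regulators Rbm5, Rbm10, Rbm17, Rbm25 and Rbm39, the U1-associated Snrnp70, Luc7l, Luc7l2 and Luc7l3, and U2af1, U2af2, Sf3b1 and Ddx39b. They were chosen by name, and each symbol was matched to its gene and to its transcripts through the transcript identifiers of the deposited tables. All 36 were found. RNA was taken from the chromatin fraction of macrophages grown from C57BL/6J mouse bone marrow, stimulated for 75 min by 100 ng/ml of lipid A, the portion of lipopolysaccharide sensed through Toll-like receptor 4. Ribosomal RNA was depleted. The series is a single group of 2 libraries, labelled biological replicates 1 and 2, which were made from 250 ng and 500 ng of RNA. Both carry the same donor label, age and sex were not collected, and nothing in the sources used here says whether the cultures came from separate mice. No untreated cells were analysed here, so every value below describes stimulated cells and no test between conditions was possible.

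SR proteins bind exons through an RNA recognition motif and recruit the spliceosome through a domain rich in arginine and serine. SRPK and CLK kinases phosphorylate that domain and thereby move SR proteins into and out of nuclear speckles, whose core is built by the proteins of Srrm2 and Son. U1 snRNP and its LUC7-like partners recognise the start of an intron, while U2AF and the SF3B complex recognise its end and branch site. Many of these genes are known to control their own mRNA: an excess of the protein favours inclusion of a so-called poison exon, which carries a stop codon and exposes the mRNA to nonsense-mediated decay (NMD), or leaves an intron in a transcript that stays in the nucleus. RNA on chromatin is enriched for transcripts that are still being made, so an intron seen there may be retained or may simply not have been removed yet, and these data cannot tell the 2 states apart.

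Annotated genes held 21453617 estimated counts in replicate 1 and 29638814 in replicate 2, of which protein-coding genes held 47.0% and 66.2%. Levels are given in TPM, a unit scaled for transcript length and relative to everything else in the library. Expressed here means a TPM of 1 or more in both libraries, which 9645 genes reached, 7633 of them protein-coding. The macrophage label was checked on 10 markers: 9 were expressed, with a summed level of 310 TPM in replicate 1 and 494 TPM in replicate 2, and Fcgr1 was just under (0.93 and 2.09 TPM). Of 5 markers each for T cells, B cells, neutrophils, dendritic cells and stromal or endothelial cells, 0 were expressed, and no such list summed to more than 2.57 TPM in either library. Cd3e, Cd3g, Cd8a, Ly6g, Elane and Mpo were listed at 0 in both.

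The splicing regulators were abundant on chromatin. Of the 36 genes 35 were expressed, and their median level was 72.0 ± 35.2 TPM (SD of the medians of the libraries, n = 2), against 8.18 ± 3.25 TPM for expressed protein-coding genes. A total of 29 genes lay above the upper quartile of expressed protein-coding genes, 21.4 TPM. Together they held 0.945% of all estimated counts in replicate 1 (exact Clopper-Pearson 95% interval 0.941 to 0.949%, counting error only) and 1.42% in replicate 2 (1.42 to 1.43%), and 2.01% and 2.15% of the counts on protein-coding genes. TPM was higher in replicate 2 for all 36, by a median ratio of 1.80, and expressed protein-coding genes as a whole had a median ratio of 1.73. The SD of a level therefore mixes this shift with the gene's own difference. In bulk RNA, expression in fewer cells and less RNA per cell cannot be told apart. The order of the genes was similar in the libraries (Spearman's rho 0.97 across 36 genes, a description since genes share each library). Even so, 19 of 35 neighbouring pairs in the order of mean TPM were not in the same order in both. The ranges over the libraries overlapped in 33 of those pairs, and the 2 gaps were those that set Srsf9 below Srsf1 and Rbm10 below Srsf9.

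**Figure D1:**
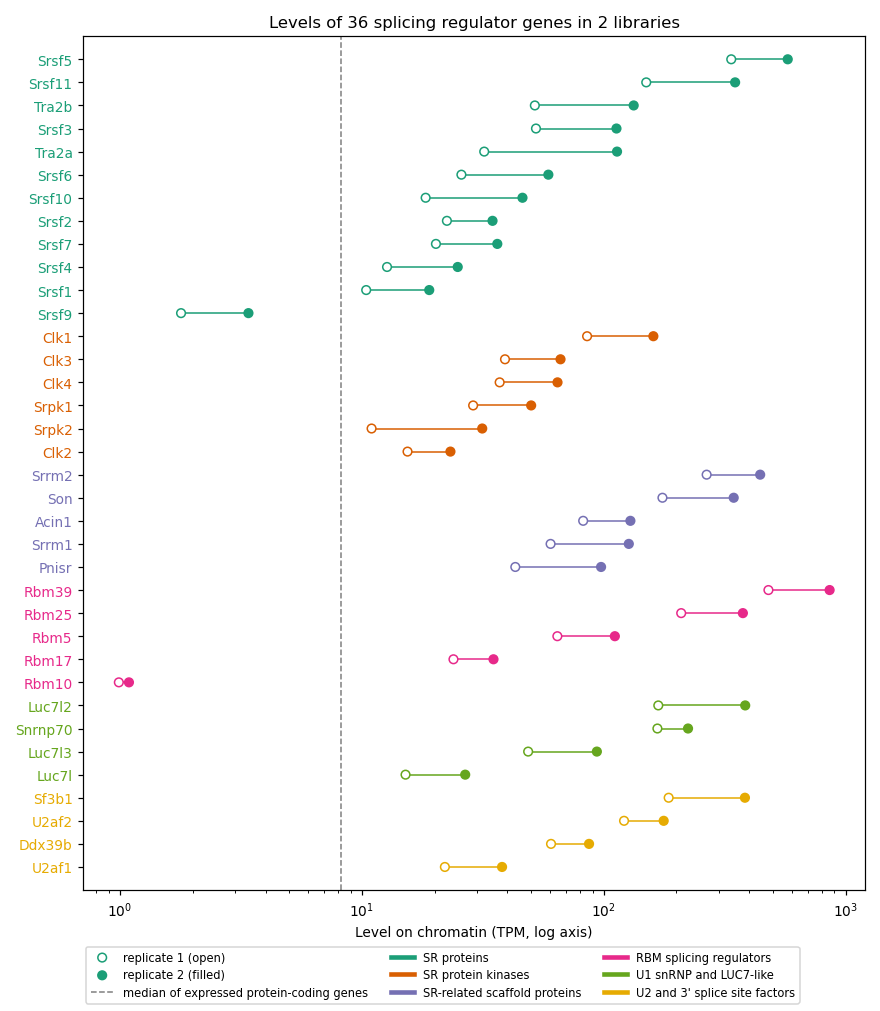
Level of each of the 36 genes in TPM on a log axis, grouped by role and ordered by mean within a role, with replicate 1 as an open and replicate 2 as a filled circle and the median of expressed protein-coding genes as a dashed line. Every gene is higher in replicate 2, and only Srsf9 and Rbm10 lie below the dashed line.

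Among the RNA-binding regulators, Rbm39, a U2AF-related coactivator (chromosome 2, 156147239 to 156180238, minus strand, mm10), stood at 480 and 860 TPM in replicates 1 and 2 and had the highest level of all 36 genes. Rbm25, which works with U1 and the LUC7-like protein of Luc7l3, was at 209 and 376 TPM. Rbm5, a regulator of exon skipping related to Rbm10, was at 64.4 and 111 TPM, and Rbm17, which binds SF3B1 at the end of introns, at 23.9 and 35.0 TPM. Rbm10 (chromosome X, 20617503 to 20650901, plus strand) was at 0.99 and 1.09 TPM from 82 and 104 counts, and was the member that missed the 1 TPM line. Rbm39 and Rbm10 thus marked the top and the bottom of the whole set within a single role group.

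The 12 SR protein genes spread almost as widely, with a median of 37.4 TPM. Srsf5 (chromosome 12, 80945504 to 80950507, plus strand) led them at 337 and 577 TPM, followed by Srsf11 at 150 and 350 TPM. Then came the transformer-2 homologues Tra2b (52.0 and 133 TPM) and Tra2a (32.1 and 114 TPM), which bind purine-rich enhancers, and Srsf3 (52.5 and 113 TPM). Srsf1, the founding member of the family, was at only 10.4 and 19.0 TPM. Srsf9 was at 1.79 and 3.40 TPM, from 49 and 90 counts, so its transcript shares rest on very few reads.

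The 5 genes grouped here as scaffold genes were high throughout: Srrm2 (chromosome 17, 23790532 to 23824741, plus strand) was at 267 and 444 TPM, Son at 175 and 345 TPM, and the lowest of the 5, Pnisr, at 43.1 and 97.6 TPM. Of the 3′ splice site genes, Sf3b1, the largest subunit of SF3B, reached 186 and 384 TPM, and U2af1, the small U2AF subunit, 22.1 and 38.0 TPM, while its partner U2af2 was at 121 and 177 TPM. On the U1 side, Luc7l2 was at 168 and 385 TPM, Snrnp70, which encodes a core U1 protein, at 167 and 223 TPM, and Luc7l at 15.2 and 26.8 TPM. The 6 kinases had a median of 45.2 TPM. Clk1 (chromosome 1, 58410189 to 58424066, minus strand) was their highest at 85.4 and 161 TPM, and Clk2 their lowest at 15.5 and 23.3 TPM. Clk3 (39.1 and 66.3 TPM) and Clk4 (37.2 and 64.5 TPM) could not be ordered beyond the spread of the libraries. The second quantification gave levels over 1.5 times higher for 5 genes: Rbm39 (711 and 1582 TPM), U2af1 (43.4 and 82.8 TPM), Rbm17 (46.7 and 74.3 TPM), Srpk1 (43.3 and 81.3 TPM, against 28.9 and 50.2 TPM in the first) and Srsf9 (3.15 and 5.60 TPM).

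On the TPM scale, most of this RNA was assigned to transcript models that do not encode the protein. GENCODE M21 lists 410 transcripts for the 36 genes: 148 protein-coding, 142 with a retained intron, 62 NMD targets and 58 processed transcripts, a class with no open reading frame assigned. Summed over the genes, retained intron models held 51.4 ± 2.42% of the transcript TPM (n = 2), protein-coding models 27.5 ± 0.652%, NMD models 11.0 ± 1.10% and processed transcripts 10.2 ± 0.671%. Over all protein-coding genes the same shares were 37.9%, 49.5%, 3.92% and 8.64%. NMD models were annotated for 86.1% of the 36 genes but 33.6% of expressed protein-coding genes, and retained intron models for 88.9% and 68.6%. The part of annotation in these sums was not tested. These sums were not made in counts, where single genes differ in both directions. Protein-coding models held 91.7 and 92.5% of the counts of Srrm2, the member with the most counts, but 51.2 and 51.4% of its TPM. In Srsf5 retained intron models held 74.3 and 75.1% of counts and 40.5 and 45.3% of TPM. The order of the types in the sums may therefore depend on the scale. The most abundant transcript was a retained intron model in 23 of the 36 genes (71.9% of the 32 with such a model, where the background over expressed protein-coding genes with one was 45.8%), a protein-coding model in 11, a processed transcript in 2 (Srsf5 and Srsf10) and an NMD model in 0. In 26 genes (81.2% of the 32, background 45.2%) the retained intron share exceeded the protein-coding share in both libraries.

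**Figure D2:**
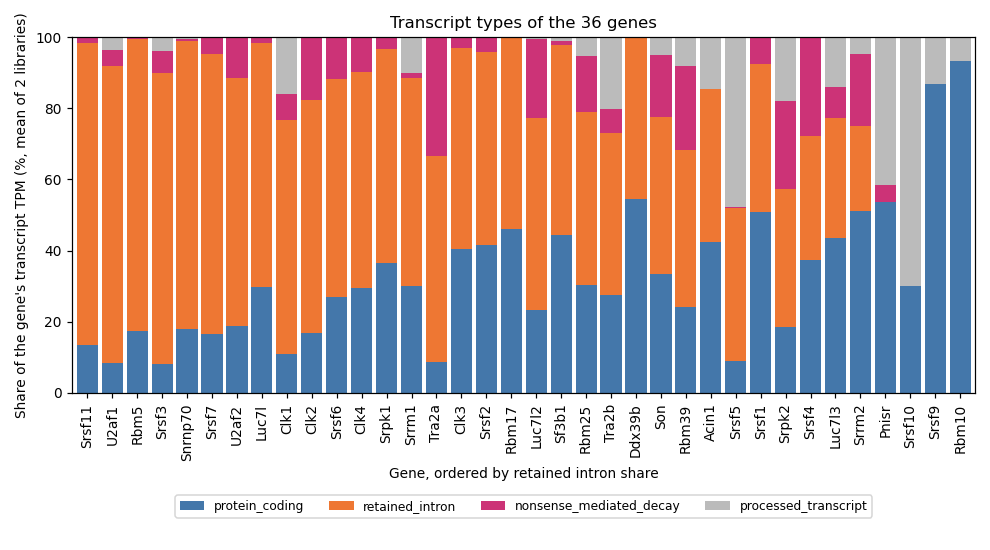
Mean share of each gene's transcript TPM over the 2 libraries, split by annotated transcript type, with genes ordered by retained intron share. Orange fills more than 80% of the bars of Srsf11, U2af1, Rbm5, Srsf3 and Snrnp70, while Pnisr, Srsf10, Srsf9 and Rbm10 have no retained intron model annotated.

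An annotated retained intron transcript existed for 32 of the 36 genes (88.9%), against 68.6% of expressed protein-coding genes. The median share of transcript TPM on such models was 55.4 ± 3.21% over those 32 genes, against 45.9 ± 1.76% over 5233 expressed protein-coding genes that have one, these genes included. A share of 50% or more in both libraries was found in 18 of 32 genes (56.2%), where the background over expressed protein-coding genes was 36.4%. These genes also have more models of the kind, with a median of 3 against 2. With 3 or more such models, a comparison chosen after seeing the data, the medians were 58.5% for 23 splicing regulators and 56.4% for 2228 genes, so the gap was smaller among genes with several models. In the second quantification the medians in TPM were 54.1% and 44.1% with 1 or more models, and 57.5% and 57.0% with 3 or more. There the gap almost closed among genes with several models. Counted in reads of the first quantification instead of TPM, the gap was wider: 57.5% against 29.3%, and 63.9% against 40.1% with 3 or more models. Between the scales the median of the splicing regulators thus moved little and that of the background moved more. TPM divides by length. Retained intron models had a median length of 905 bases in these genes and 834 over expressed protein-coding genes, and protein-coding models 1786.5 and 1911 bases, but the part of length in the gap was not tested.

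**Figure D3:**
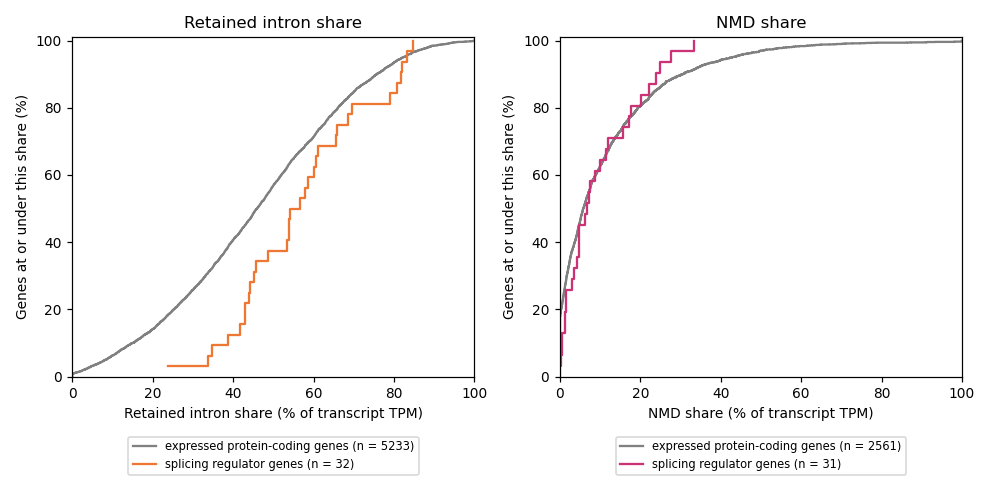
Cumulative distribution of the retained intron share (left) and the NMD share (right), as percent of transcript TPM averaged over the 2 libraries, for splicing regulators (coloured) and expressed protein-coding genes (grey) that have such a model. The coloured retained intron curve lies to the right of the grey one over most of its length (medians 55.4% and 45.9%), whereas the NMD curves run close together around medians of 6.70% and 5.79%.

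The highest shares belonged to genes of different roles. Srsf11, an SR protein, had 81.6 and 88.1% of its transcript TPM on 11 retained intron models, U2af1 81.3 and 85.4% on 3, Rbm5 80.4 and 83.7% on 13, Srsf3 83.6 and 79.9% on 4, and Snrnp70 83.7 and 77.7% on 9. Behind them came Srsf7 (79.8 and 78.0%), U2af2 (67.8 and 71.4%), Luc7l (65.0 and 72.1%), Clk1 (66.2 and 65.5%) and Clk2 (63.1 and 67.8%). Their leading models were Srsf11-213 (31.0 and 85.1 TPM), U2af1-206 (10.04 and 13.2 TPM), Rbm5-219 (7.51 and 19.6 TPM), Srsf3-210 (18.5 and 39.8 TPM), Snrnp70-216 (27.5 and 42.5 TPM), Srsf7-207 (6.24 and 16.8 TPM), U2af2-207 (33.1 and 54.4 TPM), Luc7l-204 (7.13 and 14.3 TPM), Clk1-204 (16.3 and 36.2 TPM) and Clk2-211 (2.30 and 5.64 TPM). The second quantification of the same reads, with its own transcript estimates, gave lower means for Srsf3 (57.9%), U2af1 (59.1%) and Luc7l (42.6%), and means of 74.1% for Srsf11, 83.6% for Rbm5 and 78.6% for Snrnp70. It raised the mean of Rbm17 from 54.0 to 73.3%, above Srsf3 and U2af1. Which genes ranked highest thus depended on the quantification. At the low end stood Srrm2 (24.7 and 22.8%), Luc7l3 (34.5 and 33.1%), Srsf4 (35.3 and 34.2%), Srpk2 (27.7 and 49.8%) and Srsf1 (49.9 and 33.4%). By role, the median share ran from 43.6% for the scaffold genes to 61.5% for the 3′ splice site genes, and 5 of 6 kinases passed 50% in both libraries (background 36.4%), Srpk2 being the exception.

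What a retained intron model keeps could be read from the annotation. Of the 142 models, 38 (26.8%) contained at least 1 whole intron of a protein-coding transcript of the gene, against 31.6% of 14272 models over expressed protein-coding genes. At least 1 exon-intron border was crossed by 134 (94.4%), below the 98.7% of those 14272 models. The 55 distinct introns kept whole had a median length of 647 bases (quartiles 261 and 1144) and a median GC content of 40.3%. The 5967 kept introns of expressed protein-coding genes were shorter and richer in GC, at 269 bases (quartiles 116 and 702.5) and 51.1%. Of the 55, 54 ran from GT to AG, and the exception, an 83-base intron of U2af2, began with GG. Some of these introns overlap, being alternative versions of the same intron.

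The following stretches show borders at which leading models of 4 of the highest genes read through from exon into intron or the reverse, on mm10. Each is 30 bases, 12 of exon and 18 of intron, 5′ to 3′ on the gene's strand, with the GT that opens or the AG that closes the intron in capitals. Srsf11-213 runs into its exon at chr3:158022939-158022968 (minus strand), U2af1-206 at chr17:31648883-31648912 (minus) and Snrnp70-216 at chr7:45380807-45380836 (minus), whereas Srsf3-210 runs out of its exon at chr17:29032775-29032804 (plus).
Srsf11-213, intron end: aaggatgtttctctgcAGgagttattcctg
U2af1-206, intron end: gggtgtctttgactgcAGgtgctgtgagcg
Snrnp70-216, intron end: cccccacatctgttgcAGccgcttacaagc
Srsf3-210, intron start: cccaggatctcgGTaagggaccggcgaacg
These 4 borders carry the GT or AG of an ordinary intron, but Snrnp70-216 also runs across a border annotated as an intron start that opens with GC (chr7:45377377-45377406, minus strand). Snrnp70 also keeps a whole intron of 129 bases in Snrnp70-208 (chr7:45392134-45392262, minus strand, mean 13.9 TPM), and Rbm5 one of 84 bases in Rbm5-216 (chr9:107751792-107751875, minus strand, mean 3.90 TPM). These short introns are printed whole, with their first and last bases in capitals.
Snrnp70-208: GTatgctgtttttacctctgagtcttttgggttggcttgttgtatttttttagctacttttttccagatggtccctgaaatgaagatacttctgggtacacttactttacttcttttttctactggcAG
Rbm5-216: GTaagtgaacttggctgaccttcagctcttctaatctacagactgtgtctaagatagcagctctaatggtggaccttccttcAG

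CLK1 and CLK4 transcripts are known to be held in the nucleus with introns in place. Clk1-204 kept 3 whole introns, of 871, 387 and 87 bases, and Clk4-213, the leading retained intron model of its paralogue (6.72 and 14.8 TPM), kept introns of 1055, 391, 191 and 253 bases. The 387-base intron of Clk1 and the 391-base intron of Clk4 are each the second intron kept in their model, counted from the start of the gene. Their borders are set side by side, again 12 bases of exon and 18 of intron, for Clk1 at chr1:58420103-58420132 (minus strand) and for Clk4 at chr11:51273157-51273186 (plus strand), together with the whole 87-base intron of Clk1 (chr1:58417180-58417266, minus strand).
Clk1-204, intron start: taagtgcaagatGTatagaatatttttcaa
Clk4-213, intron start: taagagcaagatGTatagaatatttttcaa
Clk1-204, whole intron: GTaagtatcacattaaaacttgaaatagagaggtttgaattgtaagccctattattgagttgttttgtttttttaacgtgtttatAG
The pair of intron starts was identical at 29 of 30 bases. The end of the same intron matched at 20 of 30 bases, and the start and end of the longer intron before it at 19 and 20 of 30. The retained intron shares of the paralogues were 66.2 and 65.5% for Clk1 and 58.7 and 62.5% for Clk4, and those of Clk3 53.5 and 59.6%. In the second quantification the means were 65.6%, 57.5% and 54.7%.

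NMD transcripts were annotated for 31 of the 36 genes (86.1%), against 33.6% of expressed protein-coding genes. The median share on them was 6.70 ± 1.10% over the 31 genes and 5.79 ± 1.5% over 2561 expressed protein-coding genes with a model. An NMD share of 10% or more in both libraries was found in 10 of 31 genes (32.3%), where the background was 28.9%. The order against the background turned with the setting: 7 of 31 genes reached 10% with expected counts (background 24.9%), 11 with TPM of the second quantification (41.6%) and 9 with its estimated counts (35.8%). Among genes with 3 or more NMD models the median was 8.28% for the 6 splicing regulators and 14.8% for 422 genes.

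Tra2a had the highest NMD share, 37.3 and 29.3%, all on Tra2a-202 (11.97 and 33.3 TPM). Srsf4 followed with 24.0 and 31.4%, mainly on Srsf4-204 (2.80 and 5.98 TPM), and Srpk2 with 36.5 and 13.2% on Srpk2-204 (4.01 and 4.15 TPM). Rbm39 had 26.04 and 21.6%, led by Rbm39-223, which at 80.2 and 118 TPM was the most abundant NMD transcript of the set. Luc7l2 had 22.7 and 21.5% (Luc7l2-204, 25.1 and 52.3 TPM), Srrm2 19.0 and 21.5% (Srrm2-203, 48.3 and 92.7 TPM), Clk2 19.4 and 15.8% (Clk2-204, 3 and 3.67 TPM) and Son 18.7 and 15.9% (Son-212, 13.2 and 36.6 TPM). Rbm25 (18.7 and 12.8%) and U2af2 (13.0 and 10.1%) complete the genes at 10% or more in both libraries. Srsf9 was listed at 0% in both. With 0 of its 49 and 90 estimated counts on the NMD model, 3 divided by the total gives bounds of 6.12% and 3.33%. These approximate 95% bounds apply to a share of counts, not of TPM, and cover counting error only. The second quantification gave Srsf9 0 and 29.9%, so the share of this gene depended on the quantification. The second quantification also gave higher NMD shares for Tra2a (55.7 and 48.2%), Srsf4 (46.0 and 55.6%) and Rbm39 (33.9 and 36.7%). Clk4 went from 9.45 and 10.3% in the first to 21.2 and 29.1% in the second, and the mean of Srsf11 from 1.60 to 8.35%. There Clk4 and Luc7l3 (15.3 and 10.01%) reached 10% in both libraries, and U2af2 (9.81 and 8.86%) did not.

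In 18 of the 31 genes an NMD transcript has an exon that no protein-coding exon of the gene overlaps, 39 distinct exons in all, and in 14 genes such an exon holds the annotated stop codon, which is the layout of a poison exon. The 22 exons with a stop had a median length of 136 bases (40 to 460). Some of them overlap, being versions of the same exon, as in Srsf4 and Tra2b. The exon of Srsf4-204 is the first of its model and not an internal exon. The other 13 genes, Srpk2 and Clk2 among them, have no NMD exon of that kind. Luc7l2-204 has 5 exons that no protein-coding exon overlaps, none of which holds the stop. These exons were not counted over other genes, so whether 14 of 31 genes is usual is not known. In Srsf9, Srrm1 and U2af1 the only models with a stop in such an exon stood at 0 TPM in both libraries. In Snrnp70, Srrm1, Srrm2, Srsf4 and Srsf9 all models with such a stop lack an annotated start codon, so the reading frame is uncertain.

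The coding parts of such exons are shown from the first base of the exon to the stop codon, which is in capitals, on mm10. They belong to the genes with the highest NMD shares that have one (Tra2a, Srsf4 and Rbm39), and, chosen after their values were seen, to Tra2b, Srsf3, Srsf7 and Srrm2 for comparison. Tra2a-202 exon 2 is at chr6:49252965-49253108 (minus strand), Tra2b-206 exon 2 at chr16:22259181-22259261 (minus), Rbm39-223 exon 4 at chr2:156174126-156174168 (minus), Srsf4-204 exon 1 at chr4:131884295-131884390 (plus), Srsf3-201 exon 4 at chr17:29039454-29039487 (plus), Srsf7-203 exon 4 at chr17:80205054-80205081 (minus) and Srrm2-203 exon 2 at chr17:23811817-23811859 (plus).
Tra2a-202: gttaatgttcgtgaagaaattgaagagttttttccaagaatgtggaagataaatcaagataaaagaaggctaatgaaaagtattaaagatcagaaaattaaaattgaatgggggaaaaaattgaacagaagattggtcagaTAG
Tra2b-206: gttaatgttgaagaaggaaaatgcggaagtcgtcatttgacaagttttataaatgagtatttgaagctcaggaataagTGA
Rbm39-223: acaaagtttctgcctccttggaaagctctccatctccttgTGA
Srsf4-204: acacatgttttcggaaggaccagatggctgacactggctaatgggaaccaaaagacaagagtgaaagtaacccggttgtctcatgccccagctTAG
Srsf3-201: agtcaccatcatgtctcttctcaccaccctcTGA
Srsf7-203: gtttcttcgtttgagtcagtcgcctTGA
Srrm2-203: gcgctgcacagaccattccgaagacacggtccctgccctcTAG
The exons of the transformer-2 paralogues open with the same 9 bases. Both are rich in purines, the kind of sequence these proteins bind: A and G make up 68.3% of the first 300 bases of the Tra2a exon and 67.4% of the 276 bases of the Tra2b exon, against 45.8% of the Rbm39-223 exon, 48.4% of that of Srsf4-204, 49.4% of that of Srrm2-203, 55.4% of that of Sf3b1-208 and 60% of that of Rbm25-208. The exons compared were a selection without those of Srsf3-201 and Srsf7-203, and no purine share over exons in general was computed. Binding to these exons was not tested. Tra2b-206 stood at 5.38 and 3.59 TPM, and the NMD share of Tra2b was 10.4 and 3.04%, well under that of Tra2a in both libraries. The models of Srsf4 and Srrm2 have no annotated start codon, so their reading frame is that of an incomplete model.

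Some of these exons lie inside retained introns. Of the 22 exons with a stop, 8, in 8 genes, lie wholly inside an exon of a retained intron model of the same gene: those of Sf3b1-208, Srsf3-201, Srsf7-203, Srsf11-212, Snrnp70-204, Srrm1-209, Rbm25-208 and Rbm39-225. In Sf3b1 the enclosing model, Sf3b1-203, stood at 48.2 and 120 TPM and the NMD model Sf3b1-208 at 1.86 and 5.18 TPM. In Srsf3 the values were 16.6 and 37.7 TPM for Srsf3-204 and 3.27 and 6.92 TPM for Srsf3-201, and in Srsf7 6.24 and 16.8 TPM for Srsf7-207 and 1.03 and 1.55 TPM for Srsf7-203. Reads within such an exon fit both models, so the split between the types in these genes is an estimate of the quantifier. The exon of Rbm39-223 lies strictly inside no exon of a retained intron model. Exons that equal, or share an edge with, an exon of such a model were not counted here, so some shared reads may be missed.

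The scale also moved the shares of single genes. Srrm2-203 is a model of 494 bases, and the NMD models of Srrm2 held 20.2% of its TPM but 1.22% of its counts. Likewise the retained intron share of Son was 44.2% of TPM and 14.2% of counts, and that of Srsf1 41.6% and 9.77%. For Srsf5 it went the other way, 42.9% of TPM and 74.7% of counts, and its leading retained intron model Srsf5-212 has 2720 bases. Tra2a (22.9% of counts), Rbm39 (31.7%), Srpk2 (32.8%), Luc7l2 (21.6%), Son (27.2%) and Clk2 (17.8%) had NMD shares well over 10% on either scale. Rbm25 had 15.8% of TPM and 15.5% of counts, and Srsf4 had 27.7% of TPM but 10.3% of counts.

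Retained intron shares were mostly higher, and NMD shares mostly lower, in replicate 2. The retained intron share was higher in replicate 2 in 21 of 32 genes (65.6%), where the background was 61.3%, with a median difference of 3.58 points against 2.13 points over expressed protein-coding genes. The NMD share was lower in replicate 2 in 22 of 30 genes with a share above 0 (73.3%), where the background was 60.3%, with a median difference of -1.25 points. In the second quantification the counts were 23 of 32 (71.9%, background 63.5%) and 17 of 31 (54.8%, background 54.8%). These counts were made after seeing the data. A higher retained intron share in replicate 2 in both quantifications was found in 18 of 32 genes, and a lower NMD share in both in 16 of 31. For these joint counts no background over expressed protein-coding genes was computed, so they cannot be called particular to these genes. In the first quantification the largest move was in Srpk2, whose retained intron share went from 27.7 to 49.8% and whose NMD share went from 36.5 to 13.2%. In the second quantification Srpk2 had retained intron shares of 31.5 and 45.9% and NMD shares of 24.3 and 12.5%, and larger moves were found in Srsf1 for the former and Srsf9 for the latter. Luc7l3 had an NMD share of 15.2 and 2.30%. Rbm25 had a retained intron share of 42.3 and 54.9%, and Srsf1, in the opposite direction, 49.9 and 33.4%, with 61.9 and 40.0% in the second quantification. The shares of Clk1 (66.2 and 65.5%) and Srsf6 (61.2 and 61.0%) were within 1 point.

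**Figure D4:**
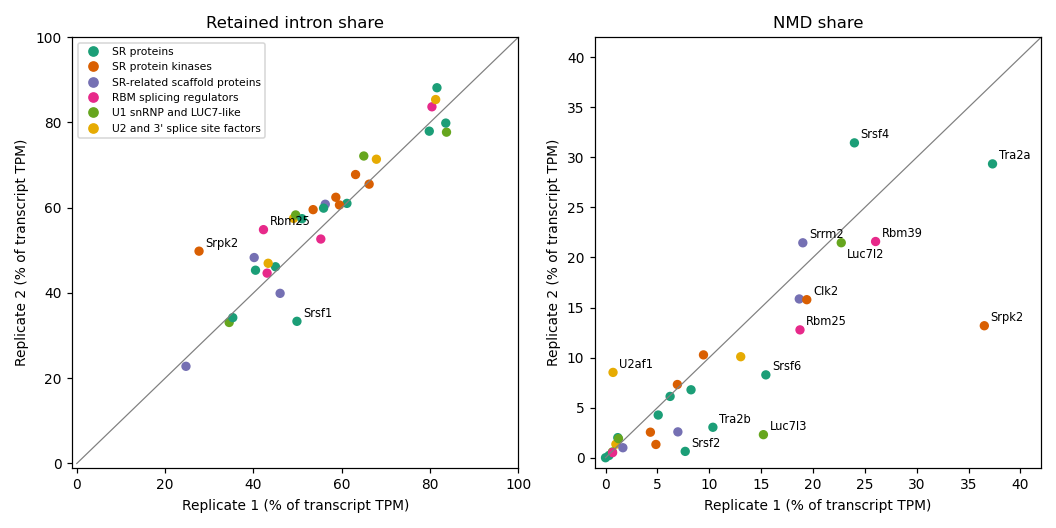
Retained intron share (left) and NMD share (right) of each gene that has such a model, replicate 1 on the horizontal and replicate 2 on the vertical axis, both as percent of transcript TPM, coloured by role, with a line of equal shares. Srpk2 lies farthest from the line in both panels, above it on the left and below it on the right.

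With TMM-scaled counts, which set the bulk of genes level between the libraries, 0 of the 36 genes differed 2-fold or more between replicates. Over 14442 genes with 20 or more counts, 8.67% were 2-fold or more higher in replicate 2 and 5.59% were 2-fold or more lower. The median log2 ratio of the 36 genes, replicate 2 over replicate 1, was -0.04, and that of expressed protein-coding genes -0.12, with quartiles of -0.48 and 0.27. The sign of the median depended on the scaling: it was 0.036 with DESeq2 size factors, 0.57 with library size only and 0.81 with TPM + 1, where protein-coding genes moved with it to -0.04, 0.49 and 0.67. Relative to the protein-coding median, 23 genes lay above and 13 below.

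Tra2a stood highest on this scale, with a log2 ratio of 0.90 (2528 and 9934 counts), followed by Srsf10 (0.65, 610 and 2024 counts) and Srsf1 (0.37, 517 and 1410 counts). Rbm10 stood lowest at -0.73 (82 and 104 counts), followed by the helicase gene Ddx39b at -0.45 (2693 and 4149 counts) and Snrnp70 at -0.41 (6885 and 10888 counts). The SR proteins had the highest group median, 0.24, and the 3′ splice site genes the lowest, -0.31. The sign of such values depends on the scaling, as above, while the distance between groups is the same under any single factor. The leading transcript of Tra2a, the retained intron model Tra2a-203, stood at 12.8 and 54.0 TPM. A gene annotated on the opposite strand within Tra2a, Gm43980, went from 443 to 2350 counts, and no source used here says if counting took strand into account, so reads of the overlapping part cannot be told apart.

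**Figure D5:**
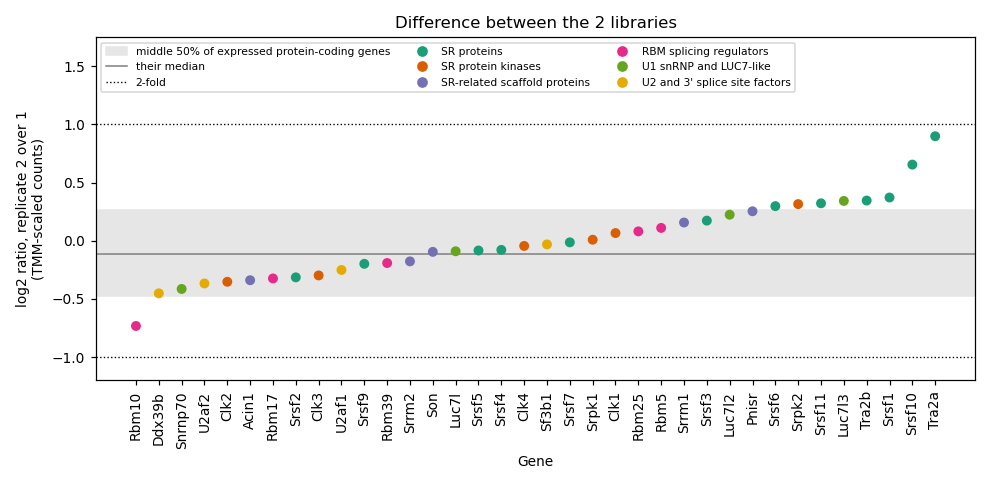
log2 ratio of TMM-scaled counts, replicate 2 over replicate 1, for the 36 genes in ascending order, coloured by role, with the middle 50% of expressed protein-coding genes in grey and dotted lines at 2-fold. All genes lie between the dotted lines, from Rbm10 at -0.73 to Tra2a at 0.90.

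The same limit applies to other members. In all, 18 of the 36 genes overlap another annotated gene, 16 of them one on the opposite strand. Overlaps were not counted over other genes, so whether this share is usual is not known. The retained intron and NMD values of Srsf4 sit beside A930004J17Rik, annotated within it on the same strand with 1038 and 3527 counts, against 755 and 1507 counts assigned to Srsf4. Rbm25 overlaps the antisense gene Gm29361 (569 and 2039 counts) and Luc7l2 overlaps Gm26699 (182 and 1271 counts). Among the genes that no other gene overlaps, a subset chosen after seeing the data, the median retained intron share was 60.1% over 15 genes and the median NMD share 5.48% over 16 genes, with no background computed on genes of that kind. The part of overlapping transcription in the shares was not tested beyond this.

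Other genes of the pathway were described from lists. Of 48 other core spliceosome genes 45 were expressed, and their median was 8.34 TPM, close to the 8.18 TPM of expressed protein-coding genes. Prpf39, a U1-associated factor (48.5 and 169 TPM), the helicase gene Dhx15 (42.3 and 96.3 TPM) and Prpf38b (43.4 and 87.6 TPM) led them, and the small genes Snrpf, Snrpg and Sf3b5 were under 1 TPM in both. Of 40 other splicing regulators 36 were expressed, and their median was 30.8 TPM: Ccnl1, encoding cyclin L1 (222 and 375 TPM), Rsrp1, an arginine- and serine-rich protein gene (197 and 369 TPM), and Nktr, a cyclophilin with such a domain (175 and 333 TPM), reached the range of the highest members. Srpk3, known from muscle, was under 1 TPM in both, and Srsf12 and the neuronal genes Srrm3 and Srrm4 were listed at 0. The 15 NMD and exon junction factors were all expressed, at a median level of 10.8 TPM. Their highest were Smg1, the kinase that phosphorylates UPF1 (80.1 and 161 TPM), Smg9 (36.5 and 39.8 TPM) and Casc3 (20.5 and 29.5 TPM).

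Retained intron shares were spread over the whole pathway, with medians of 53.8% for 37 other core spliceosome genes, 49.3% for 33 other regulators and 61.5% for 8 NMD and junction factors. NMD shares were higher in the other regulators (14.3% over 21 genes) than in the core (5.70% over 16 genes), a description without a test. Of the 99 other pathway genes compared between the libraries, 1 differed 2-fold or more: Magohb, with 8 and 50.7 counts (log2 ratio 1.60).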

How the data were processed

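For each library the authors deposited gene and transcript tables of expected (estimated) counts and TPM made against mm10 with GENCODE M21, per the deposited text. A second transcript table of estimated counts and TPM, made by the authors from the reads and a transcript index, is the second quantification. Column names are those RSEM and kallisto write; the sources used here give no aligner, quantifier, version or strand setting. Rows that name no annotated gene were left out.

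Retained intron and NMD shares are percents of a gene's transcript TPM, averaged over the libraries. Counts were compared with TMM factors (0.810 and 1.24; edgeR 4.0.16, R 4.3.3) for genes with 20 or more summed counts, with DESeq2 1.42.0 size factors as an alternative. With 2 libraries in 1 group nothing was tested, and thresholds (1 TPM, 50%, 10%, 2-fold) are descriptive. The calculations were checked on simulated data. Sequences and positions come from GENCODE M21 transcripts, in Python 3.11.15.

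The genes and lists were chosen with earlier results of these data known. Genes were named by rule: the highest and lowest in level, shares and ratio, each role group's extremes, the 3 highest of each other list and its genes under 1 TPM. SDs over n = 2 may reflect cultures and not animals. One splice border of the sequences looked at is not reported here.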

Additional observations from a re-analysis of the deposited data

How the results depend on the processing

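No paired analysis was possible because the series has 1 group. Leaving out a library gives no ratio between libraries, so the log2 ratios have no such check. The number of expressed genes stayed between 34 and 36 under all alternatives run, and the number with a retained intron share of 50% or more between 16 and 21, where the share over all genes ran from 24.7 to 45.5%. The median level was 356 TPM with TPM rescaled over protein-coding genes, a change of unit. The median retained intron share was 54.4 and 58.9% without replicate 2 and without replicate 1, and 60.1% over genes that no other gene overlaps. In the second quantification it was 54.1% (TPM) and 58.0% (estimated counts), where expressed protein-coding genes had 44.1% and 32.3%. The median NMD share was 5.28% with expected counts, 8.35% (TPM) and 5.47% (estimated counts) in the second quantification, 8.11% with processed transcripts left out, 8.28% with 3 or more NMD models and 5.48% without overlapped genes. Expressed protein-coding genes had 9.58 and 6.93% in the second quantification, above the splicing regulators, so the order of these medians depended on the quantification. The median log2 ratio was 0.036 with DESeq2 size factors, 0.57 with library size only, 0.81 with TPM + 1 and -0.21 in the second quantification. The number of genes past the fold was 2 with library size only, 11 with TPM + 1 and 3 at a fold of 1.5, where the shares over all genes were 29.7%, 23.2% and 37.8%. For single genes, 14 of 32 retained intron shares, 14 of 31 NMD shares and 28 of 36 levels in the second quantification were within 1 SD of the first. That SD rests on 2 libraries. For levels it includes the shift in TPM between the libraries, and for shares it can be very small, as in Srsf6 (0.112 points). The counts for levels and for shares therefore cannot be compared.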
